A study of Mus musculus with 12 samples.

Results

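The mRNAs of 10 cytokines and chemokines that CD8+ T cells make were followed in mouse primary CD8+ T cells: Ifng, Tnf, Lif, Il2, Csf2, Ccl3, Ccl4, Ccl5, Xcl1 and Ltb. They were picked by gene name out of the 54532 genes listed for each library. Lif was put among them because its level fell with TVA after Creb1 knockdown, so that fall, and each comparison of single groups that holds a knockdown group, is given for Lif as a description without a test. Of the 10, 8 (Ltb, Ccl5, Xcl1, Ccl4, Tnf, Ccl3, Lif and Ifng) had a mean of at least 1 FPKM (fragments per kilobase of gene and per library size, a level per gene length) over the 12 libraries and were tested among 11550 genes. Il2 and Csf2 lay below that level and are described apart.

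Activated CD8+ T cells signal to other cells with secreted proteins and kill target cells with granules. Interferon-γ and TNF act on infected or malignant cells, IL-2 drives the growth of T cells, GM-CSF (Csf2) acts on myeloid cells, and CCL3, CCL4, CCL5 and XCL1 are chemokines that attract leukocytes. Lymphotoxin-β (Ltb) stays on the cell surface and builds lymphoid tissue, and LIF belongs to the IL-6 family and signals through LIFR together with gp130 (Il6st). The mRNAs of several of these proteins are made in short bursts after stimulation of the T cell receptor, by NFAT, AP-1 and NF-κB factors, and are removed quickly by proteins such as those of the ZFP36 family. CREB, the product of Creb1, is activated by the cAMP pathway and binds DNA at the cAMP response element (CRE).

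Bulk RNA-seq covered 4 groups of 3 libraries. Cells of the siNTC group received a non-targeting control siRNA and DMSO, and those of the siNTC+TVA group received the same siRNA and trans-vaccenic acid (TVA), a fatty acid of ruminant fat, at 20 μM for 24 h. The siCreb1 group received an siRNA against Creb1 and DMSO, and the siCreb1+TVA group that siRNA and 20 μM TVA for 24 h. All cells were of C57BL/6 mice, were isolated from lymphoid organs with beads, were stimulated through CD3 and CD28 in culture and were kept with IL-2 during siRNA treatment. Neither the mice's ages nor the number of mice behind the 3 libraries of a group are given in the labels, so the p-values measure the spread between these libraries, which may be technical. Knockdown is transient and partial, and the added IL-2 means that all 4 groups saw one of the cytokines from outside.

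Creb1 was at 10.6 ± 0.359 FPKM in siNTC cells and 1.42 ± 0.314 FPKM in siCreb1 cells (SD, n = 3 each). With TVA it was at 11.8 ± 0.711 and 1.55 ± 0.338 FPKM in the same order, and the difference between siRNAs within TVA states was −9.71 FPKM (exact permutation test within TVA states, two-sided, p = 0.005, the smallest that 400 divisions can give). The libraries held 16660234 to 24602484 reads that could be recovered from the FPKM values. The summed FPKM of 7 CD8 T cell markers (Cd3d, Cd3e, Cd3g, Cd8a, Cd8b1, Cd2 and Lck) was 2156 to 2303, against 4.81 to 6.197 for 3 CD4 T cell markers, 7.98 to 10.5 for 5 NK cell markers, 9.48 to 14.25 for 5 B cell markers and 4.99 to 9.10 for 7 macrophage or monocyte markers. Markers of dendritic cells (5 genes), neutrophils (5 genes) and mast cells or basophils (4 genes) summed to at most 0.554, 1.59 and 1.88 FPKM. None of these 34 markers of other cells was at 0 in every library. In bulk RNA, fewer cells of a type and less RNA per cell cannot be told apart.

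The upstream sequences of 3 of the 10 genes are shown because they belong to Lif and Ltb, which each had one group apart from the others, and to Ifng, the one gene whose window held a short CRE core. They are the bases before the annotated gene start within the RefSeq promoter window (250 bases before the RefSeq start), build GRCm38.p6, written 5′ to 3′ on the strand of the gene, which is the plus strand for all of them. Capitals mark AP-1 (TGACTCA) in Lif, the short CRE core (TGACG, here CGTCA on the other strand) in Ifng and the NF-κB consensus (on the other strand) in Ltb.
Lif, chr11:4257318-4257556: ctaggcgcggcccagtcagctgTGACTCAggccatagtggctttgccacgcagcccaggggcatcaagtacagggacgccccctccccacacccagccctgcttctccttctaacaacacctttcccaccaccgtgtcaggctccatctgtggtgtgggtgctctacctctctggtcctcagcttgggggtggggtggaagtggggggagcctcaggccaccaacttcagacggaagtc
Ifng, chr10:118440796-118441045: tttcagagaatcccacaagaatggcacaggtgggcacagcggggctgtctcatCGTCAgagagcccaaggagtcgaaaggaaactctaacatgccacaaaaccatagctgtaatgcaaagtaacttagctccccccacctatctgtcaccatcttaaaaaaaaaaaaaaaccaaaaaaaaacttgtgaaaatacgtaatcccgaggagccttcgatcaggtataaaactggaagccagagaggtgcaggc
Ltb, chr17:35194257-35194438: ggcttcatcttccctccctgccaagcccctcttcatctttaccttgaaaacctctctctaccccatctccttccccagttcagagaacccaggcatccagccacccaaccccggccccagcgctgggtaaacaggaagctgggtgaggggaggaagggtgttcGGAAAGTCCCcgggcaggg

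Both strands of the windows of 8 genes were searched, and Ccl4 and Ccl5 were not searched. The short CRE core TGACG was in 1 of 8 (Ifng, 197 bases before the RefSeq start) and in 17.8% of all 32851 promoters. The full CRE (TGACGTCA) was in 0 of 8 and in 1.55% of all promoters. AP-1 (TGAGTCA or TGACTCA) was in 1 of 8 (Lif) and in 4.46% of all. The NFAT core GGAAA was in 8 of 8 and in 55.6% of all, and the NF-κB consensus was in 1 of 8 (Ltb, 87 bases before the RefSeq start, overlapping the NFAT core) and in 1.41% of all. A match is a description of the letters and not a binding site.

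Per gene length, the 10 mRNAs spanned levels from 590 to 0.203 FPKM. Ltb (ENSMUSG00000024399, chromosome 17, 35194439 to 35196320, plus strand) had a mean of 590 FPKM over the 12 libraries and ranked 74 among all listed genes. Ccl5 (ENSMUSG00000035042, chromosome 11, 83525778 to 83530518, minus strand) had a mean of 153 FPKM and ranked 277. Xcl1 (ENSMUSG00000026573, chromosome 1, 164931644 to 164935527, minus strand) followed with 29.8 FPKM. Ccl4 (ENSMUSG00000018930, chromosome 11, 83662584 to 83664683, plus strand) had 8.90 FPKM. Tnf (ENSMUSG00000024401, chromosome 17, 35199381 to 35202007, minus strand) had 4.98, Ccl3 (ENSMUSG00000000982, chromosome 11, 83647844 to 83649355, minus strand) 4.09 and Lif (ENSMUSG00000034394, chromosome 11, 4257557 to 4272514, plus strand) 3.27 FPKM. Their ranges over the 12 libraries overlapped. Ifng (ENSMUSG00000055170, chromosome 10, 118441046 to 118445892, plus strand) had 1.16 FPKM from 20 to 39 reads per library, Csf2 (ENSMUSG00000018916, chromosome 11, 54247271 to 54249667, minus strand) 0.673 FPKM from 3 to 23 reads, and Il2 (ENSMUSG00000027720, chromosome 3, 37120523 to 37125959, minus strand) 0.203 FPKM from 1 to 11 reads. Positions are on GRCm38. Xcl1, Il2 and Csf2 overlap a gene on the other strand (Gm20743, Adad1 and Gm12223), whose mean levels were 0.264, 0.00432 and 0.0786 FPKM, and whether the counting used strand is not given in the sources used here. Ltb overlaps Mir6973a on its own strand, which was listed at a mean of 42.1 FPKM, so the split of reads between them is uncertain.

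**Figure D1:**
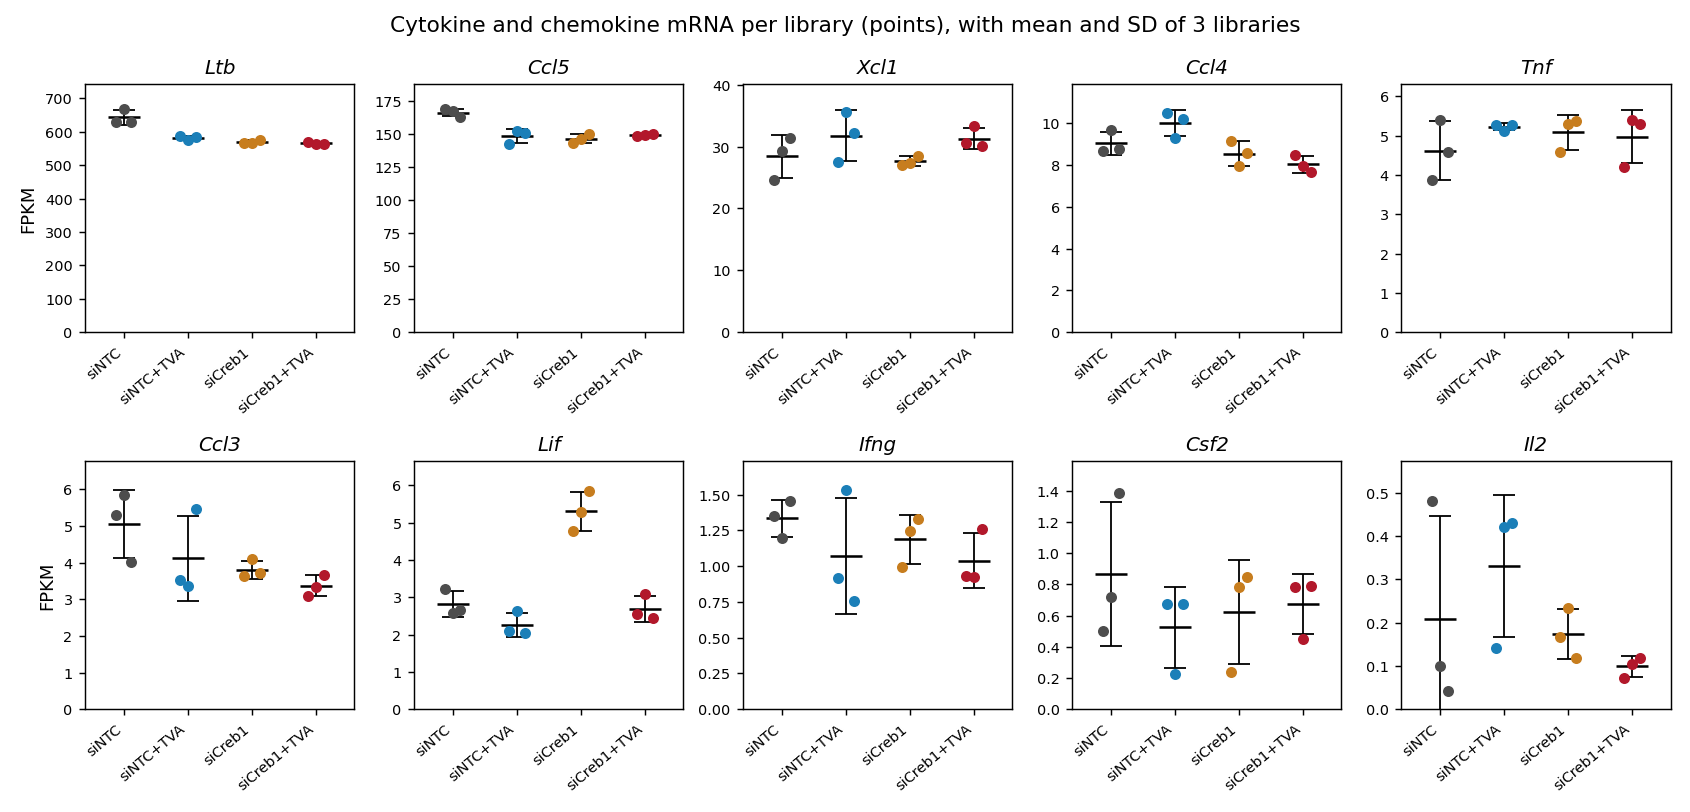
FPKM (y axes, from 0) of the 10 mRNAs in each library, by group (x axes), with the mean (horizontal line) and SD (error bar, cut at 0 for Il2 in siNTC) of 3 libraries. The siCreb1 libraries of Lif stand alone at 4.78 to 5.84 FPKM, and the siNTC libraries of Ltb and Ccl5 lie above those of the other groups.

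Lif, the IL-6 family cytokine, had its highest level after Creb1 knockdown without TVA. In siNTC cells it was at 3.21, 2.58 and 2.66 FPKM, and in siCreb1 cells at 4.78, 5.29 and 5.84 FPKM. The groups did not overlap, and the mean was 88.3% higher, at 2.82 ± 0.345 against 5.30 ± 0.531 FPKM (SD, n = 3 each). On the log2(FPKM + 1) scale, which understates the change of low genes, the difference was 0.72. The siCreb1 libraries enter the contrast for which Lif was chosen, so this difference is a description and was not tested. The comparison of siRNAs averaged over TVA uses the sum of the knockdown groups where the choice used their difference, and it gave 0.45 (standard error 0.07, limma, Benjamini-Hochberg adjusted p = 0.00177). It averages 0.72 without TVA and 0.18 with TVA. The libraries by which Lif was chosen enter it and its standard error, so this p-value is not independent of the choice.

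With TVA, Lif in siCreb1 cells was at 2.55, 3.08 and 2.45 FPKM, a mean of 2.69 ± 0.339 (SD, n = 3), so that the level fell by 49.3% from siCreb1 cells, the fall by which Lif was chosen (log2 change −0.77, interaction −0.54, both as descriptions). In siNTC+TVA cells it was at 2.10, 2.63 and 2.03 FPKM, overlapping siNTC cells, and the change of −0.23 (95% interval −0.45 to −0.0074) had an adjusted p of 0.223 (limma). In TVA-treated cells the difference with knockdown was 0.18, also as a description. The order of the group means was siNTC+TVA, siCreb1+TVA, siNTC and siCreb1, and among the first 3 each neighbour overlapped the next. The companion receptor chain Lifr was at 0 to 0.0582 FPKM, while gp130 (Il6st) was at 19.4 to 22.7 FPKM.

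Ltb, the membrane cytokine, and Ccl5, a chemokine that attracts T cells and monocytes, were highest in siNTC cells. Ltb was at 630.3, 669 and 629.95 FPKM in siNTC cells, at 586, 574 and 583 in siNTC+TVA cells, at 567, 567 and 576 in siCreb1 cells and at 568, 563 and 563 in siCreb1+TVA cells. The siNTC libraries lay above all 9 others. TVA lowered Ltb in siNTC cells, where it fell by 9.67% (log2 change −0.15, standard error 0.02, limma, adjusted p = 0.00415), and with knockdown without TVA it fell by 11.4% (−0.17, standard error 0.02, adjusted p = 0.00145 from limma). TVA changed Ltb in siCreb1 cells by −0.01 (95% interval −0.07 to 0.04, adjusted p = 0.915 from limma). The interaction, which is the TVA change in siCreb1 cells minus that in siNTC cells, was 0.13 (standard error 0.03) with an adjusted p of 0.0821 (limma). With quantile normalization both falls of Ltb were −0.07 and missed the threshold (adjusted p = 0.306 and 0.246 from limma).

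Ccl5 was at 169, 167 and 163 FPKM in siNTC cells and at 143, 153 and 151 FPKM in siNTC+TVA cells. In siCreb1 cells it was at 143, 147 and 150.5 FPKM, and in siCreb1+TVA cells at 149, 149 and 150.4 FPKM. As for Ltb, the siNTC libraries lay above all 9 others, which overlapped among themselves. With TVA, Ccl5 fell by 10.6% in siNTC cells (log2 change −0.16, standard error 0.03, limma, adjusted p = 0.00618), and with knockdown without TVA it fell by 11.9% (−0.18, standard error 0.03, adjusted p = 0.00277 from limma). In siCreb1 cells TVA changed Ccl5 by 0.03 (95% interval −0.03 to 0.09, adjusted p = 0.832 from limma). The interaction of 0.19 (standard error 0.04) had an adjusted p of 0.0395 (limma), and it was called in leave-one-out fits only without siNTC replicate 3, siNTC+TVA replicate 2 or siCreb1 replicate 3. Without any other library the adjusted p was 0.0561 to 0.0945 (limma). When only the 6 libraries compared were fitted, the TVA fall in siNTC cells had adjusted p-values of 0.0616 for Ccl5 and 0.0688 for Ltb (limma).

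Both comparisons share the siNTC libraries, so a high level there enters both. The summed CD8 T cell markers were at 2295 to 2303 FPKM in siNTC cells, 2273 to 2286 in siNTC+TVA cells, 2156 to 2173 in siCreb1 cells and 2174 to 2190 in siCreb1+TVA cells. Of these 7 markers, 4 fell and 1 rose with knockdown without TVA, beside 7.21% and 6.52% of all tested genes in the same order. Cd8b1 changed by −0.16 and Cd3d by −0.15 on the log2 scale (adjusted p = 0.000665 and 0.00615 from limma), and Cd8a by 0.09 (adjusted p = 0.00397 from limma). These calls were lost in 1 of 10 other settings for Cd8b1 and for Cd8a and in 3 for Cd3d. The part of these markers in the changes of Ltb and Ccl5 was not tested. Rescaling to TPM shifted the median of all tested genes with knockdown by 0.04 and left −0.13 for both Ltb and Ccl5 (adjusted p = 0.0449 and 0.0131 from limma).

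Ccl4, a CC chemokine like Ccl5, had its lowest levels after knockdown with TVA. It was at 8.65, 9.67 and 8.77 FPKM in siNTC cells and at 10.5, 9.29 and 10.2 in siNTC+TVA cells. After knockdown it was at 9.13, 7.93 and 8.57 FPKM without TVA and at 8.46, 7.93 and 7.68 with TVA. With knockdown, Ccl4 fell by 19.7% in TVA-treated cells, with no overlap between the groups (log2 change −0.28, standard error 0.06, limma, adjusted p = 0.0188). This call was lost with TPM (adjusted p = 0.0852), with limma-voom on the recovered reads (0.175) and without siNTC+TVA replicate 1 or 3 or siCreb1+TVA replicate 2 or 3 (0.0575 to 0.0634, limma). Without TVA the knockdown change of Ccl4 was −0.07 (95% interval −0.21 to 0.07), and the interaction was −0.21 with an adjusted p of 0.299 (limma). Lyz2, a macrophage marker, was at 5.48 ± 0.746 FPKM in siNTC+TVA cells and 7.54 ± 0.616 FPKM in siCreb1+TVA cells (SD, n = 3 each), a difference of 0.40 (adjusted p = 0.0478 from limma) whose call was lost in 10 of 12 leave-one-out fits and in 6 of 10 other settings. Its part in the level of Ccl4, which macrophages also make, was not tested.

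Ccl3, also a CC chemokine, was at 5.30, 5.85 and 4.03 FPKM in siNTC cells, at 3.53, 3.37 and 5.46 in siNTC+TVA cells, at 3.62, 4.09 and 3.72 in siCreb1 cells and at 3.10, 3.34 and 3.66 in siCreb1+TVA cells. Its libraries spread widely in both siNTC groups, from 43 to 85 reads. The largest change of Ccl3, −0.32 with knockdown without TVA (95% interval −0.65 to 0.0062), had an adjusted p of 0.186 (limma). Averaged over TVA, knockdown changed Ccl3 by −0.27 (95% interval −0.50 to −0.03, adjusted p = 0.0993 from limma).

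Xcl1, which attracts cross-presenting dendritic cells, was at 24.5, 29.2 and 31.45 FPKM in siNTC cells and 27.5, 35.6 and 32.15 FPKM in siNTC+TVA cells. In siCreb1 cells it was at 27.1, 27.4 and 28.5 FPKM, and at 30.5, 33.2 and 30.1 FPKM with TVA. The groups overlapped in siNTC cells and did not overlap in siCreb1 cells. The TVA changes were 0.16 (95% interval −0.06 to 0.37, adjusted p = 0.409) and 0.17 (95% interval −0.04 to 0.39, adjusted p = 0.648) in the same order (limma). The summed NK cell markers, NK cells being another source of Xcl1, were 7.98 to 9.05 FPKM in siNTC, 8.66 to 9.68 in siNTC+TVA, 8.31 to 8.71 in siCreb1 and 10.1 to 10.5 in siCreb1+TVA cells. Their part in the level of Xcl1 was not tested.

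The effector cytokines Tnf and Ifng passed the test in none of the 7 comparisons, with limma or with limma-voom on the recovered reads, and 0 of these tests had an unadjusted p under 0.05 in limma. Tnf was at 3.88, 5.40 and 4.59 FPKM in siNTC, 5.28, 5.13 and 5.28 in siNTC+TVA, 4.58, 5.30 and 5.38 in siCreb1 and 4.20, 5.41 and 5.30 in siCreb1+TVA cells, so that all 4 groups overlapped. The TVA change of Tnf was 0.16 in siNTC cells (95% interval −0.08 to 0.39, adjusted p = 0.443) and −0.03 in siCreb1 cells (95% interval −0.26 to 0.20, adjusted p = 0.961, limma). Ifng was at 1.35, 1.20 and 1.45 FPKM in siNTC, 0.919, 1.53 and 0.759 in siNTC+TVA, 0.997, 1.24 and 1.33 in siCreb1 and 0.933, 0.926 and 1.26 in siCreb1+TVA cells. Its groups overlapped as well, with TVA changes of −0.19 in siNTC cells (95% interval −0.49 to 0.11, adjusted p = 0.482) and −0.10 in siCreb1 cells (95% interval −0.41 to 0.20, adjusted p = 0.885, limma). With 20 to 39 reads per library, Ifng has a counting error of up to 22.4% in a library.

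Il2 and Csf2 were close to the limit of detection. Il2 was at 0.482, 0.1005 and 0.0422 FPKM in siNTC cells, at 0.142, 0.420 and 0.430 in siNTC+TVA cells, at 0.167, 0.235 and 0.119 in siCreb1 cells and at 0.0729, 0.105 and 0.119 in siCreb1+TVA cells. Csf2 was at 0.501, 0.719 and 1.39 FPKM in siNTC cells, at 0.676, 0.225 and 0.676 in siNTC+TVA cells, at 0.239, 0.783 and 0.848 in siCreb1 cells and at 0.781, 0.450 and 0.792 in siCreb1+TVA cells. The groups overlapped for every pair that differs in TVA or siRNA, except Il2 between siNTC+TVA and siCreb1+TVA cells. Exact permutation tests within strata were two-sided with 400 divisions each, and 19 were run over the cytokines on log2(FPKM + 1). For Il2 these exact permutation tests gave p = 0.165 for siRNA and 0.865 for TVA, and for Csf2 p = 0.87 and 0.525. For that pair, Il2 changed by −0.27 with knockdown when all genes above 0 were fitted (adjusted p = 0.413, limma). The other differences did not exceed the spread between libraries, and depth and spread cannot be told apart as the limit here.

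Counted over the cytokines, TVA in siNTC cells lowered 2 of the 8 tested (Ltb and Ccl5) and raised 0, where 7.38% of all 11550 tested genes were called, 4.49% higher and 2.88% lower. Of 7 (Lif set aside) 0 were called for TVA in siCreb1 cells, where 0.537% of genes were called, and 0 of the 7 had an unadjusted p under 0.05 (9.58% of all genes) or were called by limma-voom. With Lif set aside, knockdown without TVA lowered 2 of 7 (Ltb and Ccl5) and raised 0 (13.7% of all genes called, 6.52% higher and 7.21% lower). Knockdown with TVA lowered 1 of 7 (Ccl4), beside 10.1% of all genes. The interaction was called for 1 of 7 (Ccl5), beside 2.24%. Averaged over TVA and with Lif set aside, knockdown changed 3 of 7 (Ccl4 by −0.18, Ltb by −0.11 and Ccl5 by −0.09), beside 20.5%. Of all tested genes, 9.53% were called higher and 11% lower. For Lif, up by 0.45, this contrast holds libraries by which it was chosen. Its call is not independent of that choice and is not counted. In the exact permutation test within TVA states (two-sided), Lif, Ccl4, Ltb and Ccl5 had p = 0.015, 0.02, 0.005 and 0.055, with the same limit for Lif. With FPKM rescaled to TPM, this exact permutation test gave p = 0.01, 0.08, 0.1 and 0.29 in the same order. Averaged over siRNAs TVA changed 1 of 7 (Ltb by −0.08, adjusted p = 0.0219 from limma), beside 5.55%. The median change was −0.15 over the 8 cytokines with TVA in siNTC cells and −0.09 over 7 (without Lif) with knockdown without TVA, against medians of −0.0056 and −0.0011 over all tested genes. Libraries of the groups compared did not overlap for 2 of 8 with TVA in siNTC cells (23.9% of all genes), for 1 of 7 (Xcl1) with TVA in siCreb1 cells (17.1%), for 2 of 7 (Ltb and Ccl5) with knockdown without TVA (31.5%) and for 2 of 7 (Ltb and Ccl4) with knockdown with TVA (31.8%).

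**Figure D2:**
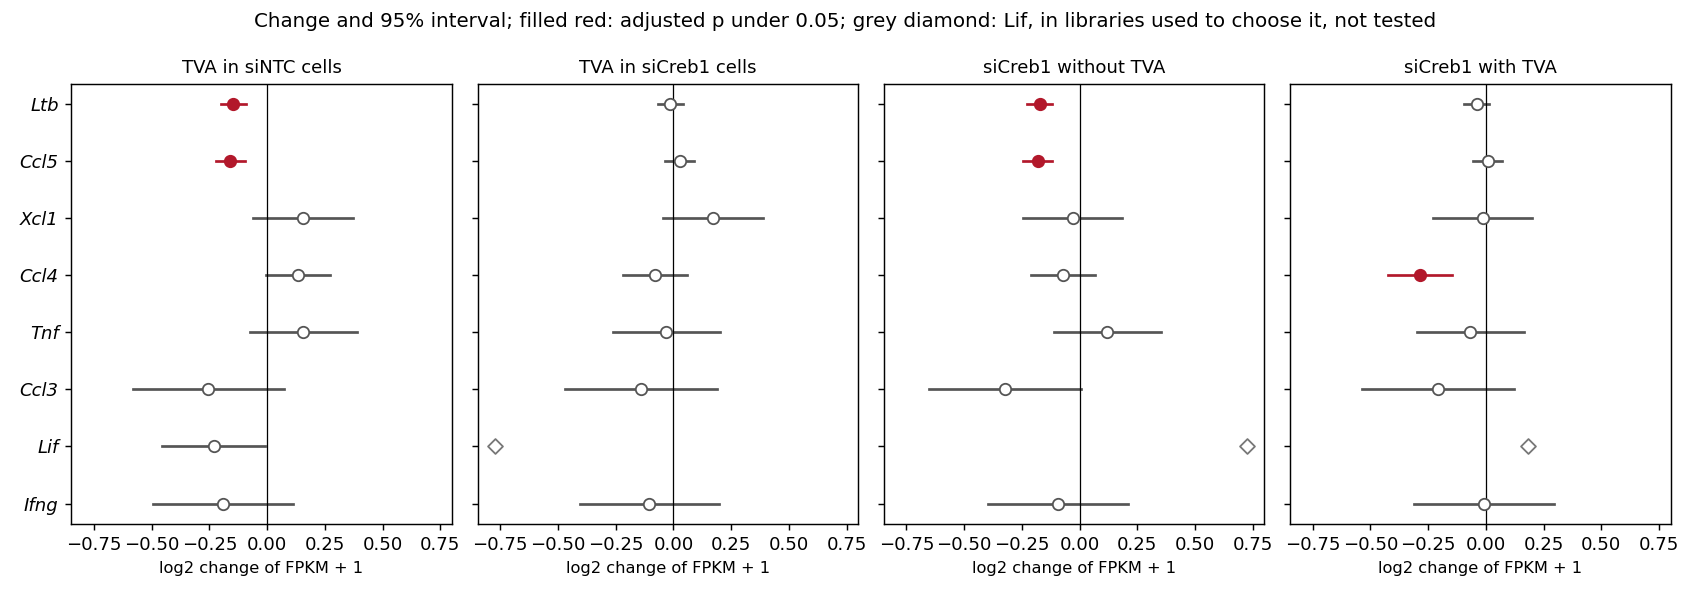
Log2 change of FPKM + 1 (x axes) of the 8 tested cytokines (y axis) in 4 comparisons, with 95% intervals from limma. Filled red points had an adjusted p under 0.05, and grey diamonds are differences of Lif (−0.77, 0.72 and 0.18) that hold libraries by which it was chosen, shown without an interval.

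The receptors through which these cytokines act were described from a list of 17 genes, of which 10 were tested. TVA in siNTC cells lowered 2 of the 10, beside 2.88% of all tested genes called lower. Ifngr1, the ligand-binding chain of the interferon-γ receptor, fell by 0.24 on the log2 scale (adjusted p = 0.000185) and Il6st fell by 0.19 (adjusted p = 0.000882, limma). With knockdown without TVA, Ifngr1 was at −0.30 (adjusted p = 8.58e-05) and Il2ra, the α chain of the IL-2 receptor, at 0.23 (adjusted p = 0.00132, limma) on the log2 scale. Il2ra was the 1 receptor called for TVA in siCreb1 cells (log2 change −0.28, adjusted p = 0.00232 from limma), from 20.4 ± 0.726 to 16.7 ± 0.148 FPKM (SD, n = 3 each). In that comparison 0.537% of all tested genes were called. Csf2ra, a chain of the GM-CSF receptor, was at 0.33 with knockdown averaged over TVA (adjusted p = 0.0276 from limma), a call lost in 8 of 12 leave-one-out fits and in 3 of 8 other settings. Csf2rb, Csf2rb2, Ccr1, Ccr3, Xcr1, Ltbr and Lifr had means below 1 FPKM. The median change of the 10 was 0.02 with TVA in siNTC cells and 0.08 with knockdown without TVA.

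Of 37 other cytokines and chemokines that T cells can make, 13 were tested and 24 lay below a mean of 1 FPKM, among them Il3 and Il22, which were listed at 0 in all 12 libraries. TVA lowered 1 of the 13 in siNTC cells, Il16 (log2 change −0.13, adjusted p = 0.0366 from limma, lost in 7 of 12 leave-one-out fits and 4 of 10 other settings), and 0 were called in siCreb1 cells (2 at an unadjusted p under 0.05 and 2 by limma-voom). The share called in siNTC cells was 7.69%, beside 7.38% of all tested genes. In siCreb1 cells 0.537% of all tested genes were called, and 9.58% had an unadjusted p under 0.05. Knockdown without TVA raised Flt3l, a growth factor of dendritic cells, from 10.96 ± 0.715 to 16.5 ± 0.789 FPKM (SD, n = 3 each, log2 change 0.55, adjusted p = 0.000559) and Osm, an IL-6 family cytokine like LIF, by 0.31 (adjusted p = 0.0158), and lowered Il16 by 0.18 (adjusted p = 0.00651, limma). These were 3 of 13, beside 13.7% of all tested genes. Flt3l was raised in TVA-treated cells too (0.41, adjusted p = 0.00434), as was the chemokine Ccl6, from 1.77 ± 0.345 to 3.67 ± 0.520 FPKM (SD, n = 3 each, 0.76, adjusted p = 0.00384, limma). These were 2 of 13, beside 10.1% of all tested genes. Myeloid cells also make Ccl6, and the summed macrophage or monocyte markers were 5.06 to 6.41 FPKM in siNTC+TVA and 7.74 to 9.10 FPKM in siCreb1+TVA cells. The part of these markers in the rise of Ccl6 was not tested. The median change of the 13 was 0.0090 with TVA in siNTC cells and 0.01 with knockdown without TVA.

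Factors that control the decay or translation of cytokine mRNAs were described from a list of 14, all of which were tested. TVA in siNTC cells lowered 4 of the 14 (2.88% of all tested genes) and raised 0 (4.49%). Of the 4, 3 belong to the ZFP36 family, which binds AU-rich elements and brings about mRNA decay. Zfp36l2 changed by −0.28, Zfp36l1 by −0.22 and Zfp36 by −0.18 (adjusted p = 0.00176, 0.0250 and 0.0179). The fourth was the ribonuclease gene Zc3h12a (−0.27, adjusted p = 0.0344, limma). Knockdown without TVA lowered the same ZFP36 family members (Zfp36l2 −0.43, Zfp36 −0.30, Zfp36l1 −0.21) and raised Tial1 (0.21) and Tia1 (0.15), which restrain translation (adjusted p = 0.000151, 0.000886, 0.0196, 0.0183 and 0.0280 from limma). Of all tested genes, 7.21% were called lower and 6.52% higher with knockdown without TVA. Zfp36l2 was at 199 ± 10.8 FPKM in siNTC, 164 ± 1.93 in siNTC+TVA, 147 ± 6.47 in siCreb1 and 156 ± 2.17 in siCreb1+TVA cells (SD, n = 3 each), so its highest level, like those of Ltb and Ccl5, was in siNTC cells. For TVA in siCreb1 cells 0 of the 14 were called by limma (2 at an unadjusted p under 0.05 and 2 by limma-voom). There limma called 0.537% of all tested genes, and 9.58% had an unadjusted p under 0.05. Without one library, the limma calls among the 14 numbered 1 to 4 for TVA in siNTC cells and 2 to 6 for knockdown without TVA. Lost in leave-one-out fits were those of Zfp36l1 (5 of 12), Zc3h12a (5) and Zfp36 (4) for TVA in siNTC cells, and those of Tia1 (6), Tial1 (3) and Zfp36l1 (1, without siNTC replicate 1, adjusted p = 0.0644 from limma) for knockdown. In the other settings the calls numbered 1 to 5 and 3 to 6 in the same order. For TVA in siNTC cells, Zfp36l1, Zc3h12a and Zfp36 were lost in 2, 5 and 2 of 10 other settings, each with TPM. For knockdown, Tia1, Tial1 and Zfp36l1 were lost in 2, 1 and 3 of 10. The interactions of Zfp36 (0.36, adjusted p = 0.00663) and Zfp36l2 (0.36, adjusted p = 0.00793) passed the test (limma). The median change of the 14 was −0.0030 with TVA in siNTC cells and −0.01 with knockdown without TVA.

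**Figure D3:**
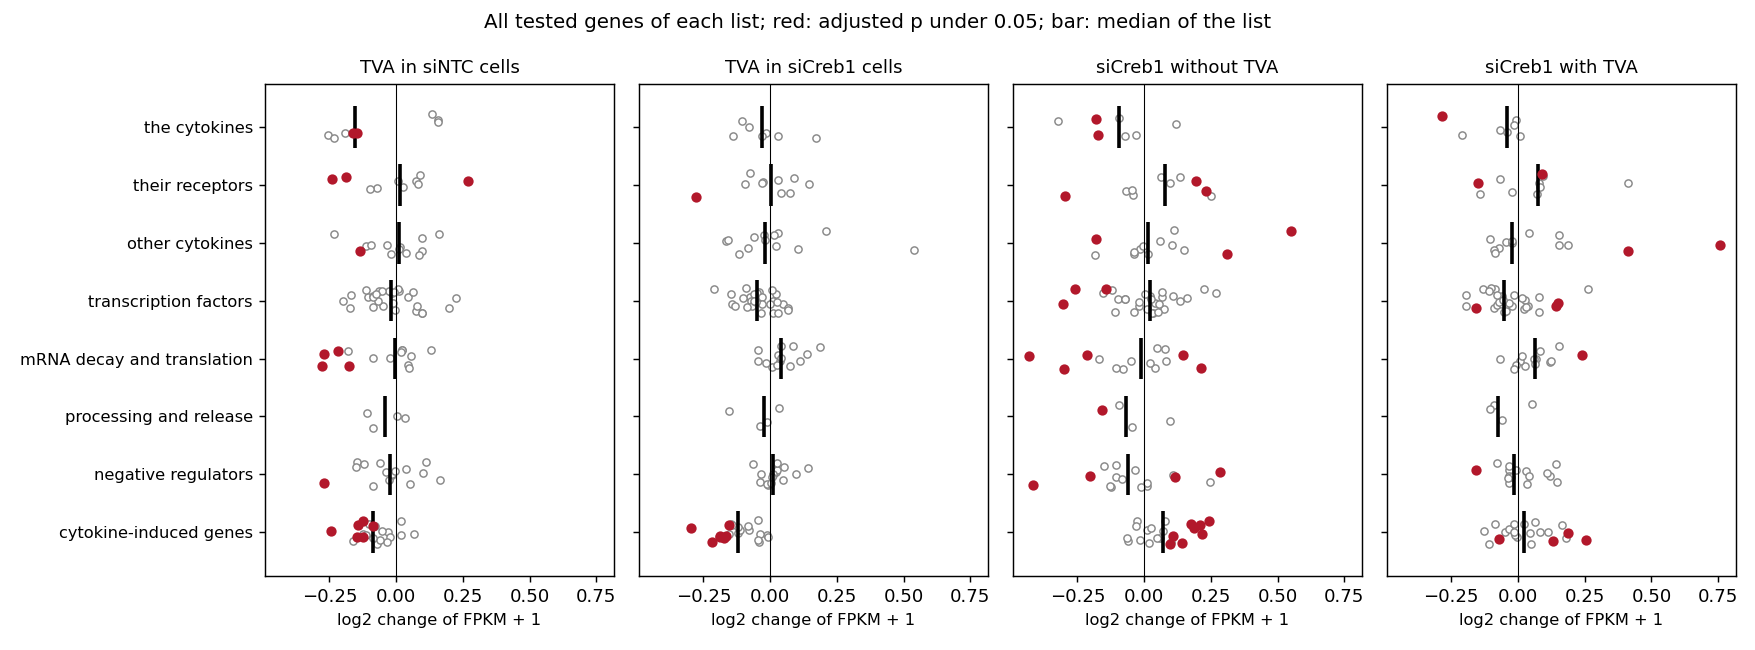
Log2 change of FPKM + 1 (x axes) of every tested gene of 8 lists (y axis, jittered) in 4 comparisons, with called genes in red and the median of each list as a bar. Lif is shown only for TVA in siNTC cells. Of the cytokine-induced genes, 18 of 21 lie below 0 with TVA in siNTC cells and 21 of 21 in siCreb1 cells.

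Of 29 tested transcription factors that act on cytokine genes, 0 were called for TVA by limma or limma-voom in siNTC cells (10 at an unadjusted p under 0.05) or in siCreb1 cells (4 at an unadjusted p under 0.05). Of all tested genes, limma called 7.38% and 0.537% in the same order, and 20.9% and 9.58% had an unadjusted p under 0.05. Knockdown without TVA lowered 3, all of them subunits of AP-1 or NF-κB (Jund −0.30, Junb −0.26 and Rela −0.14, adjusted p = 0.00979, 0.0287 and 0.0293 from limma). The share of the list called was 10.3%, beside 13.7% of all tested genes. Knockdown with TVA lowered Nfkb2 by 0.16 and raised Runx3 by 0.15 and Stat5a by 0.14 (adjusted p = 0.0105, 0.0124 and 0.0376 from limma). The share called there was 10.3% as well, beside 10.1% of all tested genes. In leave-one-out fits the calls were lost for Stat5a (9 of 12), Rela (5) and Junb (4). Of 4 tested genes for the processing and release of cytokines, 1 was called with knockdown without TVA (13.7% of all tested genes). It was the protease gene Furin (−0.16, adjusted p = 0.0343 from limma, lost in 5 of 12 leave-one-out fits). Of 16 negative regulators of cytokine signalling, 1 was called for TVA in siNTC cells, Socs1 (−0.27, adjusted p = 0.00296). Knockdown without TVA lowered Socs1 by 0.42 (adjusted p = 0.000236) and Nfkbia by 0.20 (adjusted p = 0.0309), and raised Cish by 0.28 (adjusted p = 0.0211) and Ptpn2 by 0.12 (adjusted p = 0.0490, limma). These were 4 of 16, beside 13.7% of all tested genes. The call of Ptpn2 was lost in 10 of 12 leave-one-out fits and 5 of 10 other settings, that of Nfkbia in 3 and 5, and that of Cish in 3 and, of 9 other settings, 2. The medians with TVA in siNTC cells and with knockdown without TVA were −0.02 and 0.02 for the transcription factors, −0.04 and −0.07 for processing and release, and −0.02 and −0.06 for the negative regulators.

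Genes that interferon-γ and the other cytokines induce were described from a list of 22, of which 21 were tested. TVA lowered 6 of 21 in siNTC cells (median log2 change −0.09) and 7 of 21 in siCreb1 cells (median −0.12), and raised 0 in either, against medians of −0.0056 and −0.0012 over all tested genes. Of all tested genes, 2.88% and 0.416% were called lower in the same order. Gbp2, a guanylate-binding protein gene of the interferon response, fell by 0.12 in siNTC cells (adjusted p = 0.0176) and by 0.30 in siCreb1 cells (adjusted p = 0.000595), and the immunity-related GTPase gene Iigp1 fell by 0.25 and 0.22 (adjusted p = 0.000733 and 0.0111, limma). Knockdown without TVA raised 8 of 21 and lowered 0 (median 0.07), led by Gbp4 (0.24, adjusted p = 0.00192), Gbp2 (0.22, adjusted p = 0.000675) and Gbp5 (0.21, adjusted p = 0.0160, limma). In that comparison 6.52% of all tested genes were called higher and 7.21% lower. Without one library, limma called 2 to 5 of the 21 for TVA in siNTC cells, 2 to 7 for TVA in siCreb1 cells and 4 to 8 for knockdown without TVA. In the other settings the calls numbered 1 to 7, 1 to 9 and 4 to 10 in the same order. Lost in leave-one-out fits were the calls of Gbp2 for TVA in siNTC cells (1 of 12, without siNTC+TVA replicate 3, adjusted p = 0.0615 from limma), of Iigp1 for TVA in siCreb1 cells (4) and of Gbp5 for knockdown (3). The same calls were lost in 4, 1 and 1 of 10 other settings. With TPM, the calls of Igtp, Iigp1, Irgm1 and Irgm2 for TVA in siCreb1 cells were lost. Ifng itself was not called in any of these comparisons, and its changes were −0.19, −0.10 and −0.09.

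Over the 12 libraries, the genes whose levels were most like that of Lif were 4933412E12Rik (Pearson r = 0.967, Spearman rho = 0.825), Gbp2 (r = 0.953, rho = 0.902) and Gbp7 (r = 0.943, rho = 0.825). The siCreb1 libraries stand apart in these relations, and among deviations from the group means r was 0.838, 0.447 and 0.291 in the same order. For Ltb they were Socs1 (r = 0.976, 0.890 within groups), Ccm2 (r = 0.973, 0.730 within groups) and Rps15 (r = 0.959, 0.835 within groups). For Ccl5 they were Orai2, Scamp2 and Irf2bpl (r = 0.944, 0.931 and 0.926), for Ccl4 Mboat7, H2afv and Ostc (r = 0.909, 0.889 and 0.874), for Ccl3 Ftl1-ps1, Map2k2 and Zfp459 (r = 0.900, 0.896 and 0.895) and for Xcl1 Lage3, 1810014B01Rik and Katnbl1 (r = 0.907, 0.875 and 0.846). For Tnf they were Ndufb7, Atn1 and Inka2 (r = 0.914, 0.858 and 0.837), and for Ifng Ighv1-57, Jakmip1 and H1f0 (r = 0.834, 0.834 and 0.832). Each is the highest of correlations with all other tested genes, and the libraries share group and depth, so these are descriptions with n = 12.

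Among the 28 pairs of tested cytokines, Ltb and Ccl5 had the highest correlation (r = 0.868, rho = 0.615). The siNTC libraries stand apart in it, and within groups r was 0.0168. Ltb and Ccl3 followed with r = 0.737 (0.414 within groups). Lif had r values with the other cytokines between −0.432 (Ccl4) and 0.281 (Ifng).

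**Figure D4:**
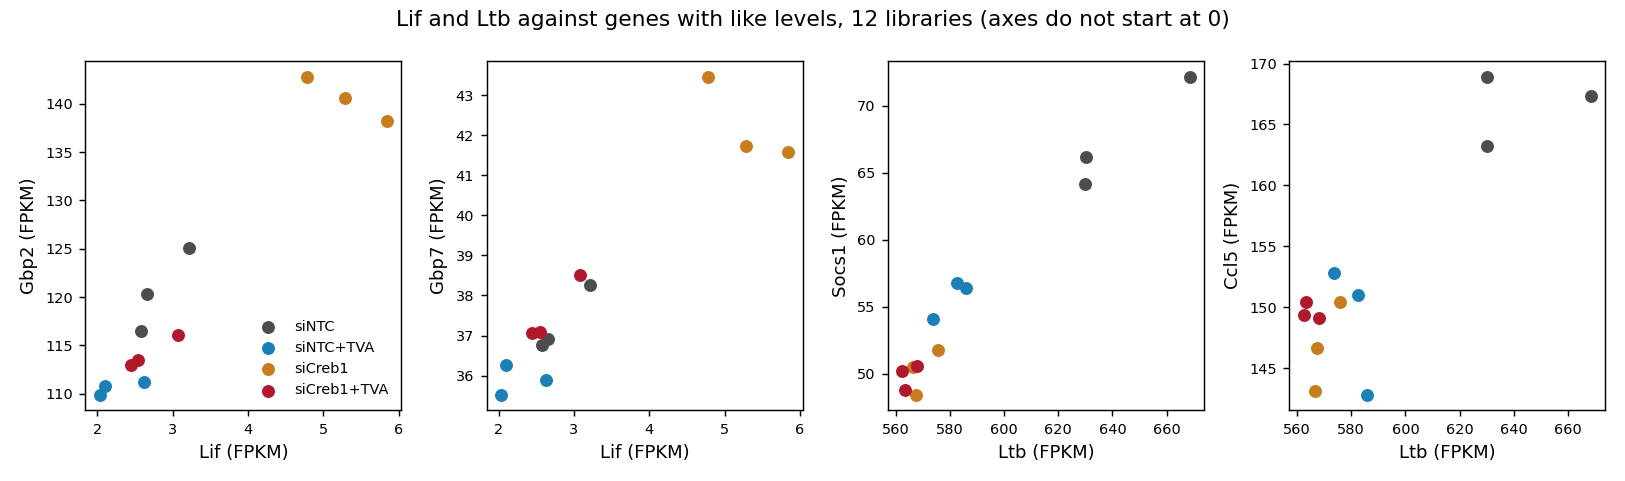
FPKM of Lif against Gbp2 and Gbp7, and of Ltb against Socs1 and Ccl5 (points are the 12 libraries, coloured by group, axes in FPKM and not starting at 0). For Lif the 3 siCreb1 libraries stand apart at 4.78 to 5.84 FPKM, and for Ltb the 3 siNTC libraries stand apart at 629.95 to 669 FPKM.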

How the data were processed

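RNA of mouse primary CD8+ T cells was sequenced by the authors from SMARTER mRNA-Seq libraries, and they deposited FPKM values, 1 file per library, on GRCm38 (mm10) per the labels. The aligner, counting program and strand setting are not given in the sources used here. FPKM times gene length gave whole reads for at least 99.995% of genes above 0 (tolerance 0.02 reads). FPKM divides by each library's total, so a shift in a few abundant mRNAs moves all others. The variance between replicate pairs was 3.85 to 6.01 times the variance that counting alone gives.

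The 11550 genes that reached 1 FPKM on average were tested on log2(FPKM + 1) in one limma 3.58.1 fit (lmFit, contrasts.fit, eBayes with trend) in R 4.3.3, with a coefficient per group, 7 comparisons, Benjamini-Hochberg adjustment over all tested genes and a threshold of 0.05. The fit was tested on simulated data. Groups, replicates and treatments were taken from the labels, and the TVA dose from the methods. Single values were tested by exact permutation within strata, since 3 libraries against 3 cannot give a p under 0.1. Python 3.11.15 with matplotlib 3.10.9 made the figures. Promoter windows are those of RefSeq (GRCm38.p6), 8 of 10 genes matched by symbol.

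The text names the 10 cytokines, Creb1, the called genes of each list (at most the 5 with the largest change per comparison) and the 3 tested genes most correlated with each cytokine. Cytokines, lists and tests were chosen with earlier results of these data known. Lif was set aside from both single-group knockdown comparisons, and from the share called averaged over TVA, after the data were seen. These hold libraries by which it was chosen. Lists are described by counts and medians. As alternatives, the pseudocount was set to 0.1, the filter was dropped or raised to 5 FPKM, values were quantile normalized or rescaled to TPM, the replicate number entered as a block, the trend was left out, limma-voom was run on recovered reads, fits held the compared libraries alone, and each library was left out. Limma-voom without the filter was chosen after seeing the data. The results of 1 gene of the receptor list are not reported here.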

Additional observations from a re-analysis of the deposited data

Results flagged for a closer look

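Of the named genes, 7 had a TVA change that differed between siCreb1 and siNTC cells by the interaction test itself (limma, Benjamini-Hochberg adjusted). Of all 11550 tested genes, 2.24% were called for the interaction. Genes of the lists were named for passing a test, this one among them, so their number follows from that choice and is no result. Ccl5 differed by 0.19 (adjusted p = 0.0395): TVA lowered it in siNTC cells and its groups overlapped in siCreb1 cells. The decay factor genes Zfp36 (0.36, adjusted p = 0.00663) and Zfp36l2 (0.36, adjusted p = 0.00793) differed in the same direction, as did Il6st (0.16, adjusted p = 0.0438) and Ccl6 (0.77, adjusted p = 0.0352). Il2ra differed the other way (−0.30, adjusted p = 0.00698), with a TVA fall in siCreb1 cells, and so did Gbp2 (−0.17, adjusted p = 0.0403). Lif was not tested here. The calls of Zfp36 and Zfp36l2 held in all 12 leave-one-out fits and 9 other settings, and that of Il2ra was lost in 1 of the other settings. The call of Il6st was lost in 12 of 12 leave-one-out fits and 4 of 9 other settings (adjusted p up to 0.169, limma), that of Gbp2 in 11 and 5 of 9 (up to 0.204), that of Ccl6 in 9 and 3 of 8 (up to 0.104) and that of Ccl5 in 9 and 3 of 9 (up to 0.0945).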

How the results depend on the processing

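Of the cytokines called for TVA in siNTC cells (2), 1 was left with quantile normalization and 0 with the compared libraries alone. For knockdown without TVA (2), 1 was left with quantile normalization. For knockdown with TVA (1), 0 were left with TPM and with limma-voom, filtered or not, and 0 to 1 without one library. For the interaction (1), 0 were left with all genes, with the replicate block and without the trend, 2 were called by limma-voom, filtered or not (Ccl5 and Ltb), and 0 to 1 without one library. For knockdown averaged over TVA (4, with Lif counted), 3 were left with limma-voom, filtered or not. With the filter of 5 FPKM, where Lif was not tested, 3 were left as well. Quantile normalization left 2, TPM left 1, and 4 to 5 were called without one library. For TVA averaged over siRNAs (1, Ltb), 0 were left with all genes, quantile normalization, TPM, the replicate block and no trend, and 0 to 1 without one library (0 without siNTC+TVA replicate 2 or 3, siCreb1 replicate 3, or siCreb1+TVA replicate 2 or 3). The cause was not tested. Replicate numbers do not pair the libraries: same-number correlations between groups were −0.0593 to 0.0595, and the block changed no other count of called cytokines.

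Signs turned among values that passed no test. For Ifng with TVA, knockdown gave 0.0037 with a pseudocount of 0.1, 0.0380 with TPM, 0.0323 with limma-voom and 0.0284 with it unfiltered. Quantile normalization gave 0.0194 for Ltb with TVA in siCreb1 cells and 0.0203 for Ltb with knockdown with TVA (0.0122 with TPM). For Xcl1, knockdown averaged over TVA gave 0.0040 with quantile normalization and 0.0269 with TPM, also in the permutation, knockdown with TVA gave 0.0160, 0.0375 and, with limma-voom, 0.0032, and knockdown without TVA gave 0.0164 with TPM. Leaving out one library at a time gave ranges across 0 of −0.0217 to 0.0267 for Ccl5 (knockdown with TVA), −0.0220 to 0.241 for Ifng (the interaction), −0.105 to 0.0259 for Ifng (knockdown averaged over TVA), −0.116 to 0.146 for Ifng (knockdown with TVA), −0.0928 to 0.0655 for Tnf (TVA in siCreb1 cells), −0.0228 to 0.0750 for Tnf (knockdown averaged over TVA), −0.123 to 0.0290 for Tnf (knockdown with TVA), −0.0811 to 0.114 for Xcl1 (the interaction), −0.0714 to 0.0199 for Xcl1 (knockdown averaged over TVA), −0.111 to 0.0695 for Xcl1 (knockdown with TVA), −0.128 to 0.0450 for Xcl1 (knockdown without TVA).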
